A study of Mus musculus with 6 samples.

Results

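The 9 genes examined here encode receptors of the activin, TGF-beta and bone morphogenetic protein (BMP) family, and the other member of the set, Inhba, encodes a subunit of the ligand activin A. They are 10 of the 49315 genes in the deposited count tables of a mouse cerebral cortex study, and all 10 had enough reads to be tested. They were chosen by gene symbol after earlier results on these libraries were known, among them the difference in Acvr1c between the groups, so their differences are given as a description, without a test. The study has 2 groups of 3 libraries, all from wild type mice that received an AAV-PHP.eB vector by retro-orbital injection at 21 days of age. AAV-PHP.eB is an adeno-associated virus capsid that reaches the brain from the blood. Its cargo carried GFP and an shRNA under a Gfap promoter, which directs expression mainly to astrocytes, and the shRNA was a scrambled sequence in one group (shScr) and one against Fabp7 in the other (shFabp7). All mice, controls included, were given lipopolysaccharide (LPS), the bacterial product used to model endotoxemia, at 1 mg/kg once a week for 3 weeks from 4 months of age, and cortex was taken 24 h after the last injection. No library came from a mouse without LPS, so the labels give the shRNA as the one difference between the groups. They do not say whether each library is a separate animal.

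Ligands of this family are dimers that bring together type I and type II receptors, both of which are serine/threonine kinases. The type II receptor phosphorylates the type I receptor, which then phosphorylates SMAD transcription factors. In general, Acvr1b, Acvr1c and Tgfbr1 signal through Smad2 and Smad3 and answer activins, nodal-type ligands or TGF-beta, whereas Acvr1 and Bmpr1a signal through Smad1, Smad5 and Smad9 and answer BMPs. In the brain, activin A is known as a ligand induced by neuronal activity that acts on synapses and neuronal survival, and TGF-beta is known to maintain the microglial state.

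Library totals ranged from 16914012 to 18991235 counts. Fabp7, the targeted gene, which encodes a fatty acid binding protein of astrocytes, had read counts of 484, 285 and 290 for the scrambled shRNA and of 93, 41 and 66 for the shRNA against it (each in library order), and its mean CPM in shFabp7 was 20.2% of that in shScr (log2 fold change -2.31, SE 0.35, edgeR adjusted p of 0.0704, DESeq2 adjusted p of 5.23e-13). The cortical excitatory neuron markers Slc17a7, Neurod6 and Tbr1 were present in both groups, with mean levels from 40.7 to 1234 CPM (read counts scaled to a common library size) in shScr. Library 1 of shScr stood apart: it held 715 reads of Avp, 394 of Trh and 244 of Pmch, neuropeptide genes of the hypothalamus, where the other 5 libraries held 4 to 92, 6 to 53 and 3 to 24. Its excitatory neuron markers were also low, with a mean log2 CPM of 6.53 over 12 genes against 7.39 to 7.70 in the other libraries. C1ql2, a gene of dentate granule cells, had 111 to 319 reads in shScr and 10 to 17 in shFabp7. Markers of other regions varied in other libraries too. Striatal markers summed to 1687 CPM in shFabp7 library 3 and 1411 CPM in shScr library 1, against 523 to 823 CPM elsewhere. Hippocampal markers had a mean log2 CPM of 4.24 in shScr library 3, against 2.49 to 3.47 elsewhere. Sex is not in the labels: 1 shScr and 2 shFabp7 libraries held 12643 to 17866 reads of Xist, the RNA of the inactive X chromosome, and the other 3 libraries held 44 to 70. Of the Xist-high libraries, shFabp7 library 2 also held 223 reads of Y-linked genes, where the other 2 held 27 and 36, so its place in the fit with sex as a covariate is uncertain. The part of these differences in the results below was not tested. Values from fits without shScr library 1 or with a covariate stand beside the receptors they move most.

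Compared per length of exon sequence, the 10 genes spanned more than an order of magnitude in the same tissue. Acvr1b, a type I receptor for activins, had the highest level at 33.1 ± 2.47 RPKM (CPM per kb of exon sequence; mean ± SD over 6 libraries), and its lowest library (29.9 RPKM) exceeded the highest value of any other member. Bmpr2, the main type II receptor of BMPs, followed at 11.2 ± 0.444 RPKM, then Acvr2a, a type II receptor for activins, at 9.79 ± 2.57 RPKM, and Bmpr1a, a type I receptor for BMPs, at 8.64 ± 0.395 RPKM. The range of Acvr2a (7.24 to 13.9 RPKM) spanned those of Bmpr2 and Bmpr1a, so its place beside them is not fixed, while every Bmpr2 library was above every Bmpr1a library. All 3 lay above Tgfbr1 (5.10 ± 0.366 RPKM), the type I receptor of TGF-beta, with no overlap between the lowest Bmpr1a library (8.27 RPKM) or Acvr2a library (7.24 RPKM) and the highest Tgfbr1 library (5.55 RPKM). Acvr1 (4.80 ± 0.668 RPKM), Tgfbr2 (3.40 ± 0.370), Inhba (3.32 ± 0.642), Acvr1c (3.29 ± 1.13) and Acvr2b (2.13 ± 0.405) followed, each overlapping the next. The Acvr1c mean spans 2 groups that do not overlap: its level was 2.29 RPKM in shScr, about that of Acvr2b (2.31 RPKM), and 4.29 RPKM in shFabp7. The lengths are those of all annotated exons of a gene, so a gene with long exons that are rarely used appears lower than its transcripts are.

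**Figure D1:**
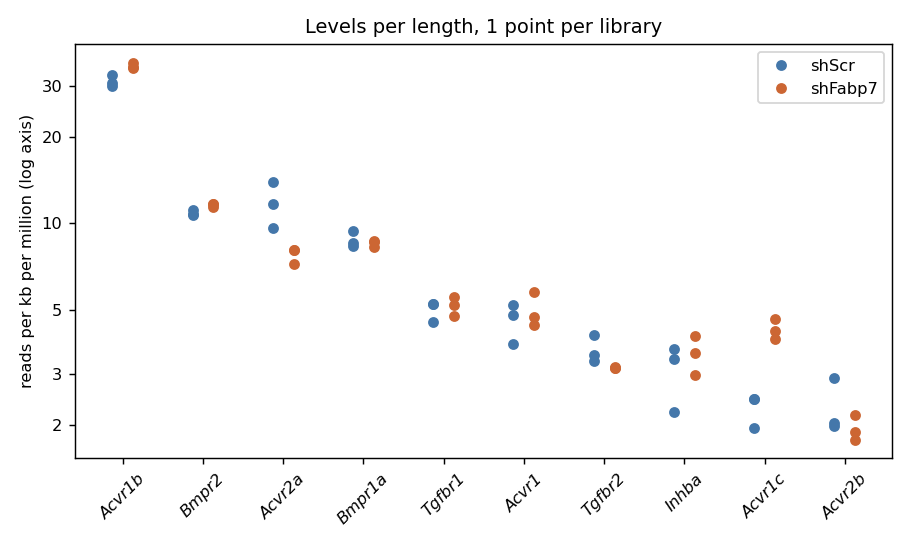
Levels of the 10 genes in RPKM on a log axis, with 1 point per library (blue, 3 shScr; orange, 3 shFabp7) and genes ordered by their mean over 6 libraries. Acvr1b lies above all others in every library, and the 2 groups are separate for Acvr1c (1.95 to 2.47 against 3.97 to 4.68 RPKM) and Acvr2a (9.64 to 13.9 against 7.24 to 8.12 RPKM).

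Acvr1c encodes ALK7, a type I receptor for activin B, nodal and several growth differentiation factors that signals through Smad2 and Smad3. Its gene (ENSMUSG00000026834) lies on the minus strand of chromosome 2 from 58267453 to 58357895, as the files give it. Levels were 18.1, 22.9 and 22.9 CPM in shScr and 39.3, 36.9 and 43.5 CPM in shFabp7, in the order of library numbers here and below. Every shFabp7 library was above every shScr library, and the gap between the groups (22.9 to 36.9 CPM) was wider than the range within either. The shFabp7 mean was 187% of the shScr mean (log2 fold change 0.90, SE 0.11). Over the 13 alternative settings the log2 fold change stayed between 0.77 and 0.96, and it was 0.80 without shScr library 1 and 0.77, the lowest, with the regional score described below.

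Acvr1b encodes ALK4, the other Smad2 and Smad3 type I receptor for activins and the close relative of ALK7. It was 135, 144 and 132 CPM in shScr and 153, 159 and 153 CPM in shFabp7, so the groups did not overlap, but the difference was small, with a log2 fold change of 0.18 (SE 0.06; 0.13 with the regional score). Because Acvr1b was far more abundant, Acvr1c made up a minor share of the pair: of their summed level per length, Acvr1c was 5.99%, 7.02% and 7.63% in the shScr libraries and 10.9%, 9.91% and 11.9% in the shFabp7 libraries. Tgfbr1, which encodes ALK5, was 34.3, 29.7 and 34.3 CPM against 31.3, 34.2 and 36.2 CPM. Its groups overlapped, and its log2 fold change of 0.05 (SE 0.09) turned sign without shScr library 2 or shFabp7 library 3. The regional score put it at 0.15, and leaving out shScr library 1 at 0.09.

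The 2 BMP type I receptors of the set, Acvr1 and Bmpr1a, showed no separation. Acvr1, which encodes ALK2, is the gene next to Acvr1c on chromosome 2 (58388644 to 58567157), with 30748 bp and 0 annotated genes of the files between the 2 genes and both on the minus strand. Its levels were 18.4, 23.2 and 25.2 CPM in shScr and 27.9, 21.4 and 22.8 CPM in shFabp7, with overlapping groups. Its log2 fold change was 0.11 (SE 0.14) and turned sign when library 1 of either group was left out, and when a regional score, described below, was a covariate (-0.06). Bmpr1a, which encodes ALK3, was 59.6, 54.2 and 53.0 CPM against 55.0, 52.5 and 54.9 CPM, a log2 fold change of -0.04 (SE 0.07) whose sign also turned with the regional score (0.06) or when shScr library 1 was left out.

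Acvr2a encodes the type II receptor ActRIIA, which binds activins and several BMPs. It lies on the plus strand of chromosome 2 from 48814109 to 48903269 (ENSMUSG00000052155). Levels were 79.2, 54.8 and 66.6 CPM in shScr and 46.1, 41.2 and 46.1 CPM in shFabp7. All shFabp7 libraries were below all shScr libraries, and the shFabp7 libraries lay closer together (SD 2.86 against 12.2 CPM). The shFabp7 mean was 66.5% of the shScr mean, a log2 fold change of -0.59 (SE 0.13), opposite in direction to Acvr1c. The highest value was in shScr library 1, and without it the log2 fold change was -0.45. With the regional score as a covariate it was -0.27. This score is the mean log2 CPM of excitatory neuron markers minus that of hippocampal, striatal, thalamic and hypothalamic, and ependymal and choroid plexus markers. After scaling, it was -1.81, 0.199 and -0.308 in shScr and 0.524, 1.11 and 0.281 in shFabp7. The score did not overlap between the groups, so fits with it cannot fully separate region from shRNA. Exons of Orc4, a replication origin gene on the other strand, cover 7.84% of Acvr2a exon sequence, and no source used here says whether reads were counted by strand, so reads of the 2 genes cannot be told apart there.

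**Figure D2:**
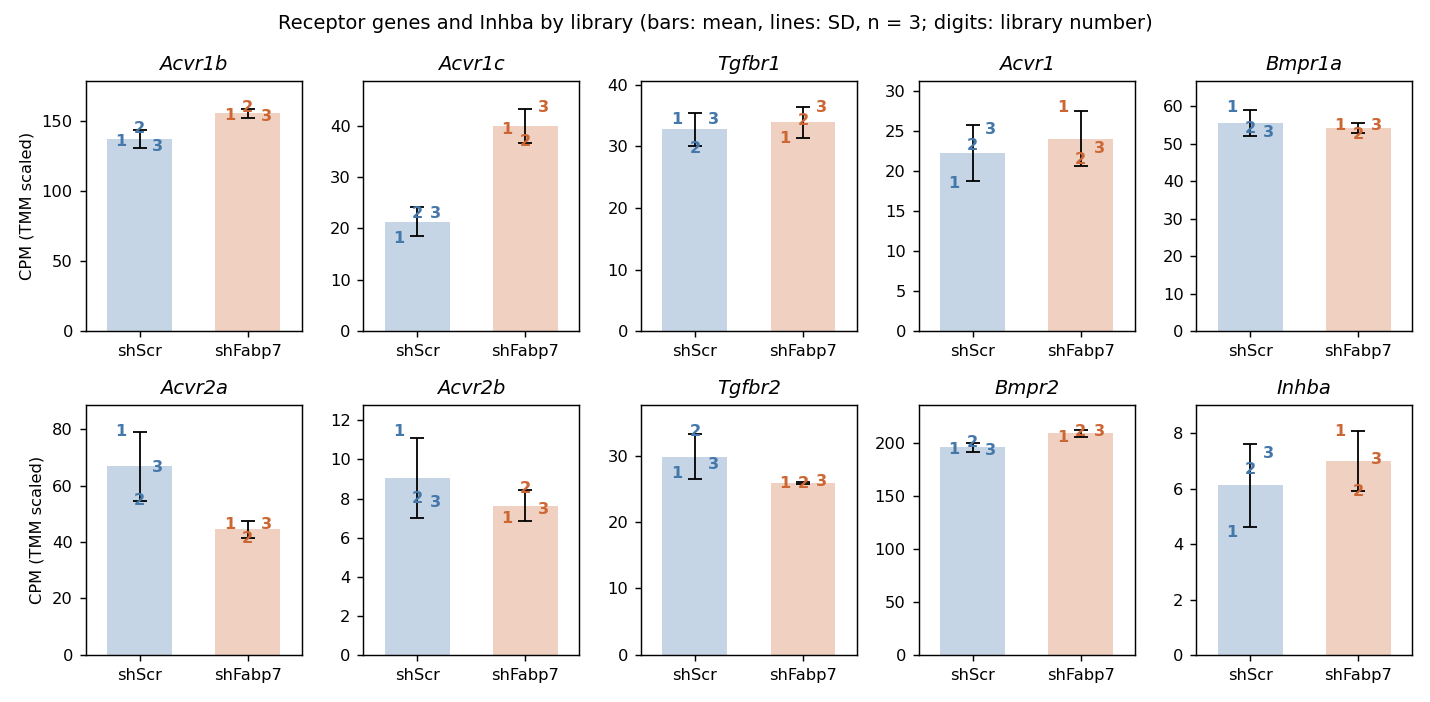
CPM after TMM scaling for each of the 10 genes, with bars for group means, lines for the SD over 3 libraries and digits for library numbers, on axes that start at 0. The groups are separate for Acvr1b, Acvr1c, Acvr2a, Tgfbr2 and Bmpr2. Library 1 of shScr is the highest for Acvr2a, Acvr2b and Bmpr1a and the lowest for Acvr1c, Acvr1 and Inhba.

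The other 3 type II receptors differed less. Acvr2b, which encodes ActRIIB, was 11.4, 7.98 and 7.80 CPM in shScr and 6.99, 8.51 and 7.42 CPM in shFabp7. Its groups overlapped, and its log2 fold change of -0.25 (SE 0.175) was -0.05 when the high shScr library 1 was left out, and 0.04 with the regional score. Tgfbr2, the type II receptor of TGF-beta, was 27.3, 33.6 and 28.6 CPM in shScr and 25.8, 25.7 and 26.0 CPM in shFabp7. The groups did not overlap, although the gap between them (26.0 to 27.3 CPM) was narrower than the range within shScr. Its log2 fold change was -0.21 (SE 0.09), -0.34 with the regional score and -0.11 without shScr library 2. Bmpr2 was 194, 200 and 192 CPM against 205, 210 and 210 CPM, with no overlap and a log2 fold change of 0.09 (SE 0.06; 0.07 with the regional score).

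Summed per length, the 5 type I receptors of the set together were higher and its 4 type II receptors together lower in shFabp7. Bmpr1a (log2 fold change -0.04) and Bmpr2 (0.09) went against the sum of their type. Receptors outside the 10 genes are not in these sums. The type I sum was 51.0, 53.0 and 51.1 RPKM in shScr and 58.2, 57.9 and 58.2 RPKM in shFabp7, and most of it was Acvr1b. The type II sum was 30.9, 26.9 and 27.9 RPKM in shScr and 24.4, 24.2 and 24.9 RPKM in shFabp7, with Acvr2a the member that differed most. The ratio of Acvr1c to Acvr2a per length was 0.140, 0.256 and 0.211 in shScr and 0.522, 0.548 and 0.577 in shFabp7. These sums and ratios use the same values as the single genes and add no independent evidence. They were not fitted with the regional score, which moved the log2 fold change of Acvr2a from -0.59 to -0.27.

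Inhba, on the plus strand of chromosome 13 from 16011851 to 16027211 (ENSMUSG00000041324), was the least abundant of the 10 by read count, with 81 to 135 reads a library. Levels were 4.41, 6.70 and 7.26 CPM in shScr and 8.07, 5.90 and 7.05 CPM in shFabp7. The groups overlapped, and library 1 was the lowest of the shScr group and the highest of the shFabp7 group. The log2 fold change was 0.19 (SE 0.21), 0.0065 when shScr library 1 was left out, and -0.07 with the regional score. Immediate-early genes, which like Inhba respond to neuronal activity, had a mean log2 CPM over 17 genes of 4.82, 5.71 and 5.38 in shScr and 4.77, 4.48 and 4.69 in shFabp7. Of the 17, edgeR called 1 lower and DESeq2 7 lower (0.0582% and 1.80% of all genes tested), and 16 had a log2 fold change below 0, where the value of Inhba was above 0 in the same fit.

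**Figure D3:**
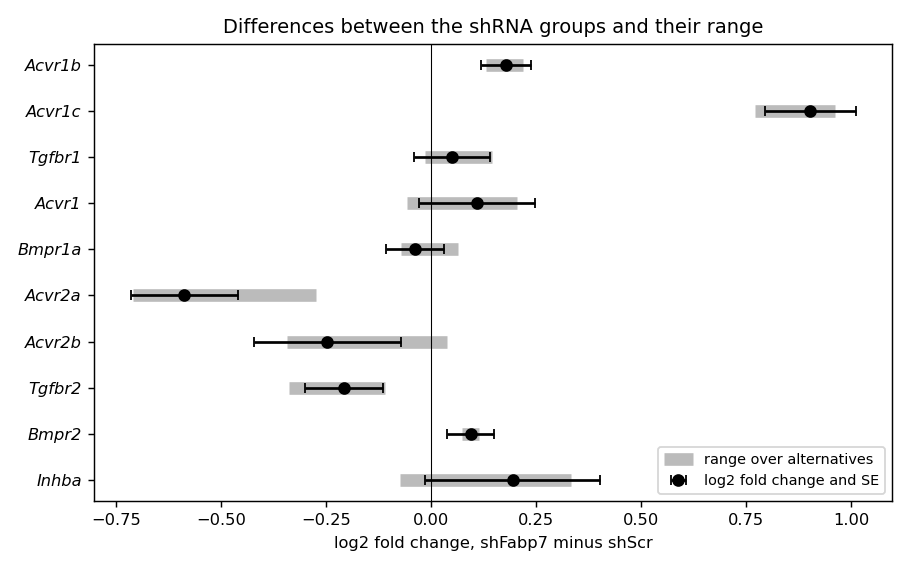
Log2 fold change of shFabp7 minus shScr for each gene (black point) with its SE (black line) and the range over 13 alternative settings (grey bar). The grey bars of Acvr1c (0.77 to 0.96) and Acvr2a (-0.71 to -0.27) stay on opposite sides of 0, while those of Tgfbr1, Acvr1, Bmpr1a, Acvr2b and Inhba cross it.

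Across all 17185 genes tested, 20 passed an adjusted p of 0.05 in edgeR's quasi-likelihood test (0.116%; 10 higher and 10 lower, 0.0582% each), and Acvr1c was the 1 member among them, on the higher side. It was absent from the calls with sex or the regional score as a covariate and without shFabp7 library 1, 2 or 3. DESeq2 called 696 genes (4.05%; 2.25% higher and 1.80% lower) and 2 members, Acvr1c higher and Acvr2a lower. The groups did not overlap for 5 of the 10 members (Acvr1b, Acvr1c and Bmpr2 higher, Acvr2a and Tgfbr2 lower) and for 22.9% of all genes tested (11.4% higher and 11.5% lower). The members were chosen on this contrast, so nothing is read from these counts. The median log2 fold change was 0.07 over the members and -0.0065 over all genes tested.

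The promoters of the genes at the 2 ends of the comparison, Acvr1c and Acvr2a, are printed here with that of Inhba, whose base composition was unlike theirs. The sequences come from RefSeq's windows of build GRCm38.p6 and run 5′ to 3′ on the gene's strand. Each is limited to bases before both the RefSeq start and the start of the gene in the count files. Capitals mark matches to the GC box GGGCGG, bound by Sp-family factors, or to TATAA, the core of a TATA box, on either strand. Acvr1c is chr2:58357896-58358008 (minus strand), Acvr2a chr2:48813859-48814108 (plus strand) and Inhba chr13:16011601-16011850 (plus strand).
Acvr1c: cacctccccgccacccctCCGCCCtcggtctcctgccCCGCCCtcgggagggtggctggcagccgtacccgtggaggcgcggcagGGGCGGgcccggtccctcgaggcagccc
Acvr2a: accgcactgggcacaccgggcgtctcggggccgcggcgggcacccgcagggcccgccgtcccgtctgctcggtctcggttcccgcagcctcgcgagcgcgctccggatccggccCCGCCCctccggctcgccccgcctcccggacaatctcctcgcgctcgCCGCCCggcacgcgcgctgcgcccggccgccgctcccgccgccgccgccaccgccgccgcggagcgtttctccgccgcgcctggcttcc
Inhba: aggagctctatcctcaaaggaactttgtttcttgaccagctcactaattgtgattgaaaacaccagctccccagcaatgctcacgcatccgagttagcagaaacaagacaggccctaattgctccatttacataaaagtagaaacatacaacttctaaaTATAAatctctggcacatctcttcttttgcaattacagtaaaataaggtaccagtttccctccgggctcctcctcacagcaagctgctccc

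Over the full 300-base windows (250 before and 50 after the start, the most upstream window where a gene has several), 8 of the 9 receptor genes held GGGCGG, Tgfbr2 being the exception, against 35.7% of 32851 windows of all genes. The windows of Acvr1, Bmpr1a and Bmpr2, all with GGGCGG, lay wholly inside the gene as the count files give it. They hold no base upstream of that start, so their matches may not be promoter sequence. This motif holds only G and C, and the receptor windows were rich in both, from 59.0% in Tgfbr2 to 83.7% in Acvr1, where the median of all windows was 52.7%. Inhba had 47.7% G and C, no GGGCGG, and 1 TATAA that begins 91 bases before the start, a motif in 24.9% of all windows. The cyclic AMP response element TGACGTCA (in 1.79% of windows), the AP-1 site TGAGTCA (5.2%) and the SMAD palindrome GTCTAGAC (0.213%) were in 0 of the 10 windows. Acvr1c and Acvr2a, whose levels differed in opposite directions, thus both had windows of 79.0% and 80.3% G and C with GC boxes. A match is a run of letters and not evidence that a factor binds there.

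Beyond the members, 100 other genes of the pathway were listed by role, and 85 had enough reads to be tested. None of the 85 passed the threshold in edgeR, as 0.116% of all genes tested did. In the same test 23 had an unadjusted p under 0.05 (9 higher and 14 lower), against 16.8% of all genes. DESeq2 called 3, where it called 4.05% of all genes tested. Tgfbr3 and Chrdl1, named after their values were seen, were among these 3. Tgfbr3, which encodes the co-receptor betaglycan that presents TGF-beta 2 and inhibin, was 16.3, 13.7 and 14.3 CPM in shScr and 11.2, 9.30 and 10.2 CPM in shFabp7 (log2 fold change -0.53, SE 0.12). Its edgeR adjusted p was 0.0931 and its DESeq2 adjusted p 0.0289. Chrdl1, a secreted BMP antagonist made by astrocytes, was 16.9, 17.7 and 12.1 CPM against 27.4, 27.3 and 24.0 CPM, a log2 fold change of 0.76 (SE 0.14, edgeR adjusted p of 0.0671, DESeq2 adjusted p of 0.000454). The groups of both genes were separate, and over the alternatives Tgfbr3 stayed between -0.60 and -0.35 and Chrdl1 between 0.60 and 0.87, with the value of Tgfbr3 nearest 0 in the fit with the regional score.

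By role, the ligands had the lowest median. Of 21 listed, 13 were tested, 10 of these had a log2 fold change below 0, the median was -0.44, and 0 passed the threshold. The 2 most abundant, Inha, the inhibin alpha subunit that opposes activin, and Bmp3, were at -0.13 (SE 0.08) and 0.29 (SE 0.10) on the log2 scale. Inhbb, the subunit of activin B, a ligand of Acvr1c, was 8.33, 8.51 and 12.2 CPM in shScr and 8.31, 4.62 and 7.05 CPM in shFabp7 (log2 fold change -0.54, SE 0.233). Without shScr library 3 or shFabp7 library 2 it was -0.34 or -0.33. Gdf11, a ligand of Acvr2a and Acvr2b, was 28.3, 24.7 and 21.6 CPM against 18.5, 20.6 and 15.96 CPM (log2 fold change -0.44, SE 0.13), and Tgfb3 was 14.0, 16.97 and 15.4 CPM against 18.1, 21.3 and 20.6 CPM (log2 fold change 0.37, SE 0.11; 0.22 with the regional score). These last 3 were chosen after their values were seen, their groups were separate (for Inhbb only by 8.31 against 8.33 CPM), and none passed the threshold (edgeR adjusted p of 0.294, 0.148 and 0.152).

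Of 10 other receptors and co-receptors, 9 were tested, 6 had a log2 fold change below 0, and the median was -0.09. Rgma and Rgmb, BMP co-receptors and the most abundant of the list, were at -0.20 (SE 0.08) and -0.07 (SE 0.07) on the log2 scale. Bmpr1b, another BMP type I receptor, chosen after its values were seen, was 30.9, 28.1 and 27.3 CPM against 26.1, 24.0 and 25.3 CPM, a log2 fold change of -0.19 (SE 0.08). Its groups did not overlap, unlike those of Acvr1 and Bmpr1a, and it did not pass the threshold (edgeR adjusted p of 0.284). With the regional score Bmpr1b was at -0.09 and Rgma at -0.07. Of 23 extracellular inhibitors and latency genes, 20 were tested, 11 had a value below 0, and the median was -0.03. The most abundant, Itgav, an integrin subunit that activates latent TGF-beta, and Ltbp4, a latent TGF-beta binding protein, had 0.07 (SE 0.12, a sign that turned with the regional score or when shScr library 3 was left out) and 0.14 (SE 0.06). Fst, which encodes the activin antagonist follistatin and was chosen after its values were seen, was 0.708, 2.98 and 2.51 CPM in shScr and 3.59, 2.98 and 4.48 CPM in shFabp7. Its lowest value was in shScr library 1, and its log2 fold change of 0.83 (SE 0.44) was 0.43 without that library and 0.155 with the regional score.

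All 22 SMADs and SMAD regulators were tested, 13 had a log2 fold change above 0, and the median was 0.03. Fkbp1a, whose protein FKBP12 holds type I receptors inactive, and Ski, a SMAD corepressor, were at -0.06 (SE 0.07) and 0.10 (SE 0.07) on the log2 scale, and Ski was at 0.02 in the fit that includes the regional score. Of 24 genes that the pathway is known to induce in other settings, 21 were tested, 16 had a value below 0, and the median was -0.17. The most abundant of them, Tsc22d1 and Fn1, had 0.07 (SE 0.06) and -0.06 (SE 0.07), the latter turning sign without shFabp7 library 1. Across all genes tested the median was -0.0065.

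**Figure D4:**
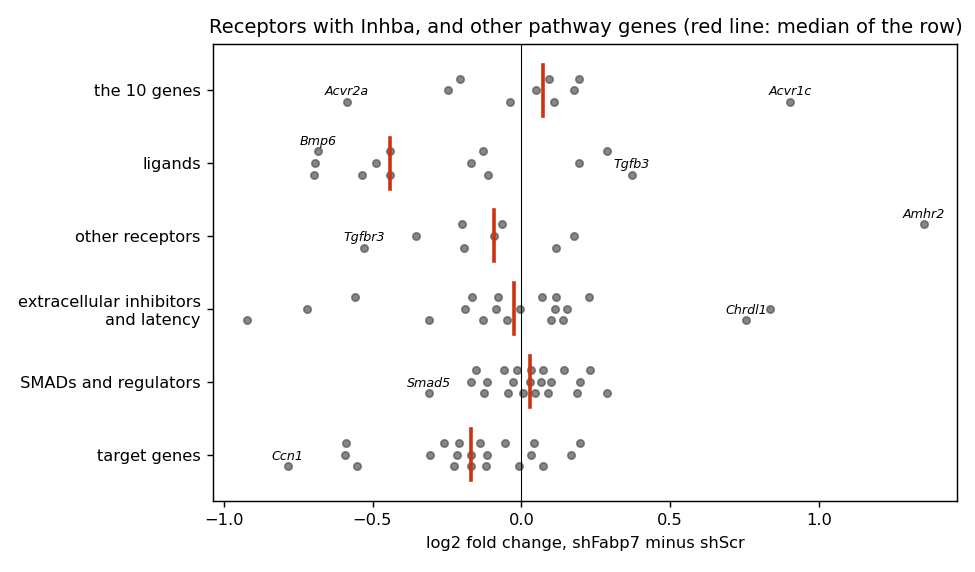
Log2 fold change of shFabp7 minus shScr for the 10 genes (top row) and for the 85 tested genes of the pathway by role, with 1 point per gene, a red line at each row's median and the names of some genes. Medians run from -0.44 for ligands to 0.07 for the 10 genes, and Acvr1c and Acvr2a lie at the 2 ends of their row.

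Marker lists of cells and regions varied between the same libraries. Hippocampal markers (10 of 11 tested) summed to 319 to 481 CPM in shScr and 272 to 326 CPM in shFabp7, and thalamic and hypothalamic markers (9 of 11 tested) to 81.9 to 230 CPM and 60.8 to 63.9 CPM. Excitatory neuron markers (all 12 tested, all with a log2 fold change above 0) summed to 4862 to 7072 CPM and 7757 to 8954 CPM. Microglia markers (all 14 tested, 13 below 0) summed to 652 to 688 CPM and 558 to 617 CPM. Endothelial and mural markers (all 15 tested, 11 above 0) summed to 600 to 760 CPM and 732 to 780 CPM, and astrocyte markers (all 12 tested, 6 above 0) to 5380 to 5743 CPM and 5415 to 5977 CPM. No list named here had a member at 0 in all libraries, and 0 of their members passed the edgeR threshold. DESeq2 called 5 microglia, 2 hippocampal, 2 thalamic and hypothalamic and 1 astrocyte marker lower, and 1 excitatory neuron and 1 endothelial or mural marker higher. Of all genes tested, it called 1.80% lower and 2.25% higher. In whole cortex, fewer cells of a type and less RNA per cell cannot be told apart. The part of these lists in the receptor values was not tested. The fits with the regional score are given beside each of the 10 genes. They cannot fully separate region from shRNA, since the score did not overlap between the groups.

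**Figure D5:**
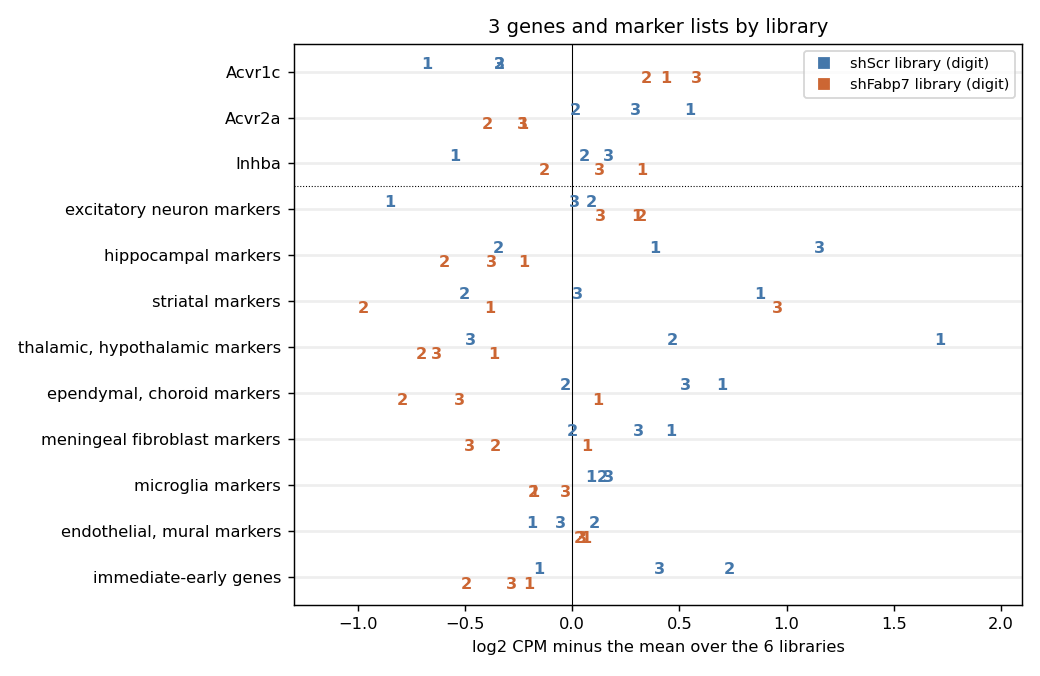
Log2 CPM of Acvr1c, Acvr2a and Inhba and mean log2 CPM of 9 gene lists, each minus its mean over the 6 libraries, with digits for library numbers (blue, shScr; orange, shFabp7). Library 1 of shScr lies far from the others for excitatory neuron markers and for thalamic and hypothalamic markers, and it is the lowest for Acvr1c and the highest for Acvr2a.

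Among 13776 genes with a mean of at least 1 CPM, the 5 whose log2 CPM followed Acvr1c most closely over the 6 libraries were Kat2a (Pearson r = 0.9951), Enpep (0.9926), Rapgef1 (0.9907), Mmp16 (0.9891) and Crtc1 (0.9879). Kat2a encodes a histone acetyltransferase, Enpep an aminopeptidase, Rapgef1 an exchange factor of Rap1, Mmp16 a membrane metalloprotease and Crtc1 a CREB coactivator. Their log2 fold changes, from 0.12 for Kat2a to 0.39 for Enpep, were smaller than that of Acvr1c, and none passed the threshold. With 2 groups of 3, such a likeness largely restates the difference between the groups. Among the members, Acvr1c lay closest to Bmpr2 (r = 0.899) and Acvr1b (0.867) and farthest from Acvr2a (-0.910). The pair with the most opposite course was Inhba and Acvr2b (r = -0.983), and Inhba went with Acvr1 (0.959). These values describe 6 libraries that share the same groups and the same shScr library 1.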

How the data were processed

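Per the labels' protocols, each of the 6 cortex libraries started from 0.5 µg of RNA and was built with Illumina's stranded kit. Sample titles gave the groups and replicate numbers. The authors deposited a table of unnormalized counts for each library, laid out as featureCounts writes them. STAR 2.5.2b, Trimmomatic 0.36, DESeq2, Subread 1.5.2 and the build GRCm39 are named, without roles, in the submitters' processing notes. Of 49056 gene IDs found in GENCODE M21 (GRCm38), 44858 (91.4%) had identical positions, so coordinates are read as GRCm38. Symbols were found for 48970 of 49315 genes.

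Genes were filtered with filterByExpr (17185 left), scaled by TMM factors and fitted with edgeR 4.0.16 in R 4.3.3 (quasi-likelihood test, robust, group alone, two-sided, Benjamini-Hochberg adjustment over all genes tested, threshold 0.05). SE was computed as the size of the log2 fold change over the root of its F statistic. CPM use TMM-scaled library sizes, RPKM also the exon length in the files, and log2 CPM a prior count of 2. Counts of 81 or more reads per library lie behind every member value. No label says that every library is a separate animal. Each group holds Xist-high and Xist-low libraries and so more than 1 animal, but part of the spread behind the p-values may be technical.

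The members and gene lists were chosen with earlier results of these data known. Named genes are the 10 members, Fabp7, pathway genes past the threshold or else the 2 most abundant per list, and the 5 genes most correlated with Acvr1c. Tgfbr3, Chrdl1, Inhbb, Gdf11, Tgfb3, Bmpr1b, Fst and Amhr2 fall outside this rule and were added after their values were seen. The 15 marker lists cover cortical and other neurons, glia, vessels, meninges, blood and immediate-early genes. Libraries were checked for copies (chi-square per degree of freedom 6.28 to 36.0 between pairs). The fits were tested on simulated data (3 runs of 17185 genes, with 200 changed per run). False calls made up 17.6% of DESeq2 calls and 9.75% of edgeR calls. Of genes changed 1.5-fold, DESeq2 recovered 54.2% and edgeR 50.2%. Of genes changed 4-fold, they recovered 89.4% and 90.4%. The calls of both tools given here may thus include false ones, and those of DESeq2 more so. The simulation drew each gene independently, without the shared regional and sex differences of the real libraries, so the simulated shares may not hold here. In the real fit Fabp7, at 20.2% of its shScr mean, did not pass the threshold (edgeR adjusted p of 0.0704). Alternatives were DESeq2 1.42.0, RLE factors, testing without a filter or with one of 1 CPM in 3 libraries, the replicate number as a block, sex (from Xist) or a regional score as a covariate, leaving out single libraries and, for levels per length, no TMM factors.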

Additional observations from a re-analysis of the deposited data

How the results depend on the processing

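The median log2 fold change of the members (0.07) kept its sign under all 13 alternatives and ranged from 0.0109 (without shScr library 1) to 0.0831 (without shScr library 3). The signs of Acvr1b, Acvr1c, Acvr2a, Tgfbr2, Bmpr2 and Fabp7 held under all 13. The regional score was higher in every shFabp7 library than in every shScr library. With it as a covariate, values turned for Acvr1 (-0.0576), Acvr2b (0.0375), Bmpr1a (0.0637), Inhba (-0.0733) and Itgav (-0.0721). Leaving out a library turned Acvr1 (-0.0108 to 0.205; below 0 without shScr 1, -0.00933, or shFabp7 1), Bmpr1a (-0.0709 to 0.0152; above 0 without shScr 1), Tgfbr1 (-0.0139 to 0.106; below 0 without shScr 2 or shFabp7 3), Fn1 (-0.110 to 0.00901; above 0 without shFabp7 1) and Itgav (-0.0324 to 0.224; below 0 without shScr 3). The number of genes called (20) was 696 in DESeq2, 1617 with no filter, 7 with sex and 11 with the regional score as a covariate, and from 0 (without shFabp7 2 or 3, with 1714 and 2170 genes at an unadjusted p under 0.05) to 900 (without shScr 2; 182 without shScr 1) with a library left out; the cause was not tested. The number of pathway genes called by edgeR (0, with 23 at an unadjusted p under 0.05) was 3 in DESeq2, 16 with no filter, and 0 to 7 with a library left out. With the replicate number as a block, 629 genes and 4 pathway genes passed, but no label says that the numbers are pairs. Same-numbered libraries correlated at 0.0808, 0.154 and 0.0573 in their deviations from group means. Libraries 2 and 3 of shScr each correlated best with the same-numbered shFabp7 library, and library 1 of shScr with shFabp7 library 3 (0.0989). These values do not settle whether the numbers are pairs. The 2 gaps between neighbours in the order of levels were the same without TMM factors. Among the 10 members, Inhba and Acvr2b had the fewest reads and the largest SEs (0.208 and 0.175).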

Other observations

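Marker lists not described above gave these values. Meningeal fibroblast markers had a median of -0.64 on the log2 scale (8 of 10 below 0) and summed to 769 to 1093 CPM in shScr and 606 to 694 CPM in shFabp7. Upper-layer neuron markers had a median of 0.22 (8 of 10 above 0) and deep-layer markers -0.16 (11 of 14 below 0). Interneuron markers had a median of -0.17, striatal markers -0.10, ependymal and choroid plexus markers -0.65 and oligodendrocyte markers 0.03. The striatal markers varied widely within both groups, summing to 591 to 1411 CPM in shScr and 523 to 1687 CPM in shFabp7. Their sum was highest in shFabp7 library 3, followed by shScr library 1. Of 10 blood and leukocyte markers, 4 could be tested, and 2 had no read in any library. None of these members passed the threshold of edgeR's quasi-likelihood test over all genes. DESeq2 called 6 fibroblast markers lower, 2 upper-layer and 1 deep-layer marker higher, 1 interneuron marker in each direction and 1 ependymal or choroid marker lower. Its calls over all genes tested were 1.80% lower and 2.25% higher. Amhr2, a type II receptor of anti-Mullerian hormone and chosen after its values were seen, was 0.544, 1.22 and 0.546 CPM in shScr and 2.09, 1.89 and 1.98 CPM in shFabp7. These levels rest on 10 to 37 reads a library. Its log2 fold change was 1.35 (SE 0.35), and 0.92 with the regional score. It passed the threshold in neither tool (edgeR adjusted p of 0.125, DESeq2 adjusted p of 0.0583).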
